A study of Mus musculus with 8 samples.

Results

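The developmental homeobox and T-box genes described here are 77 of the 18194 genes with a single symbol on the mouse expression arrays of this study. They were taken by name, as every gene whose symbol is Hoxa, Hoxb, Hoxc, Hoxd, Irx, Pax, Lhx, Dlx or Tbx followed by a number or is that of a numbered sine oculis homeobox gene (Six2 to Six6), except Tbx3, which is a pluripotency gene in embryonic stem cells (ESCs). There were 33 Hox genes (9 in the Hoxa, 9 in the Hoxb, 7 in the Hoxc and 8 in the Hoxd cluster), 6 Irx, 8 Pax, 8 Lhx, 6 Dlx, 5 sine oculis and 11 Tbx genes. Where several probe sets measured a gene, which was so for 33 of the 77, the one with the highest mean over all arrays was used.

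The RNA came from NS tet-off ESCs, male mouse ESCs of the 129sv background in which nucleostemin (NS, gene symbol Gnl3) is made from the ROSA26 locus under a promoter that doxycycline (Dox) shuts off, while both alleles of its own locus are disrupted, so that all 8 arrays share this genotype. There were 8 arrays with 1 array in each condition. They held cells treated with Dox for 6 days and Dox-untreated cells in each of 4 backgrounds: forced expression of Nanog, forced expression of Esrrb, an empty vector with the MEK and GSK3b inhibitors of the 2i condition, and an empty vector under LIF and serum. A background with its Dox-treated and Dox-untreated array is called a pair. Its log2 ratio is the log2 signal on the Dox-treated array minus that on the Dox-untreated one. The pairs asked whether forced Nanog or Esrrb, or the 2i condition, changed the response of ESCs to the loss of NS.

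These families encode transcription factors that give cells of the embryo their position and their organ identity. Hox genes lie in 4 clusters, and the order of the genes along a cluster follows the order in which they are used along the body axis. Irx, Pax, Lhx, Dlx and sine oculis genes encode further homeodomain or paired-domain factors that pattern the brain, sense organs, limbs and kidney, and Tbx genes encode T-box factors of the heart, limbs and mesoderm. In undifferentiated ESCs most of them are known to be held silent by Polycomb complexes on chromatin that also carries activating marks, and they are switched on when cells leave the pluripotent state.

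Gnl3 itself was at log2 signals of 7.79 to 9.13 on the 4 Dox-treated arrays, against 13.47 to 13.68 on the 4 Dox-untreated arrays. Nanog was at 12.23 on the Dox-treated and 12.35 on the Dox-untreated array of the Nanog background, below the 12.49 to 13.23 of the other arrays. Esrrb was at 11.38 and 11.27 on those of the Esrrb background, against 11.31 on the empty vector Dox-untreated array. These signals do not show the forced expression, and whether the probe sets read the introduced copies was not tested. The mean log2 signal of 15 pluripotency genes was 11.42 to 12.41 on Dox-treated and 12.33 to 12.38 on Dox-untreated arrays. The mean of 14 trophoblast markers was 6.50 to 7.96 on Dox-treated and 6.16 to 6.45 on Dox-untreated arrays, and Elf5 was above background on no array. In the 2i pair 8 of the 14 were over 2-fold higher, and 8 were in the empty vector pair. Means of the mesoderm (4.93 to 5.22 against 4.94 to 5.04), neural (5.30 to 5.79 against 5.12 to 5.36) and fibroblast markers (4.21 to 4.64 against 4.23 to 4.52) overlapped between Dox-treated and Dox-untreated arrays. The mesoderm mean was highest on the 2i (5.19) and empty vector (5.22) Dox-treated arrays. The mean of 11 endoderm markers set the Esrrb background apart, at 6.49 on its Dox-treated and 7.34 on its Dox-untreated array, against 5.35 to 5.67 on the other 6, and 5 of the 11 were over 2-fold lower in the Esrrb pair. Of 9 fibroblast markers 7, Col1a1 and Col1a2 among them, were above background on no array. Dusp6, a feedback gene of MEK and Erk signalling, was at 7.63 on the 2i Dox-treated array but at 10.95 on the array labelled 2i Dox-untreated, within the 10.62 to 11.40 of the arrays without inhibitors. For this reason some counts of the 2i pair are also given against the empty vector Dox-untreated array. By Dusp6, the arrays of the 2i pair may differ in MEK inhibition as well as in Dox. In the ratios of this pair, against either reference, and in the fits that use it, these cannot be told apart.

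Most of the 77 genes gave signals near the background of the arrays. The background was read from 75 odorant, vomeronasal and taste receptor genes, and the 95th percentile of their values, a log2 signal of 5.144, is called the background ceiling. The mean of a gene over the 8 arrays was between 2.65 and 8.62, with a median of 4.59, against a median of 6.69 over all genes and of 3.21 over the receptor genes. Of the 77 genes, 40 (51.9%) were above the ceiling on no array, 21 on some arrays and 16 (20.8%) on all 8, against 29.5% of all genes on no array and 60.8% on all 8. A log2 ratio of signals this near the background can understate a change.

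**Figure D1:**
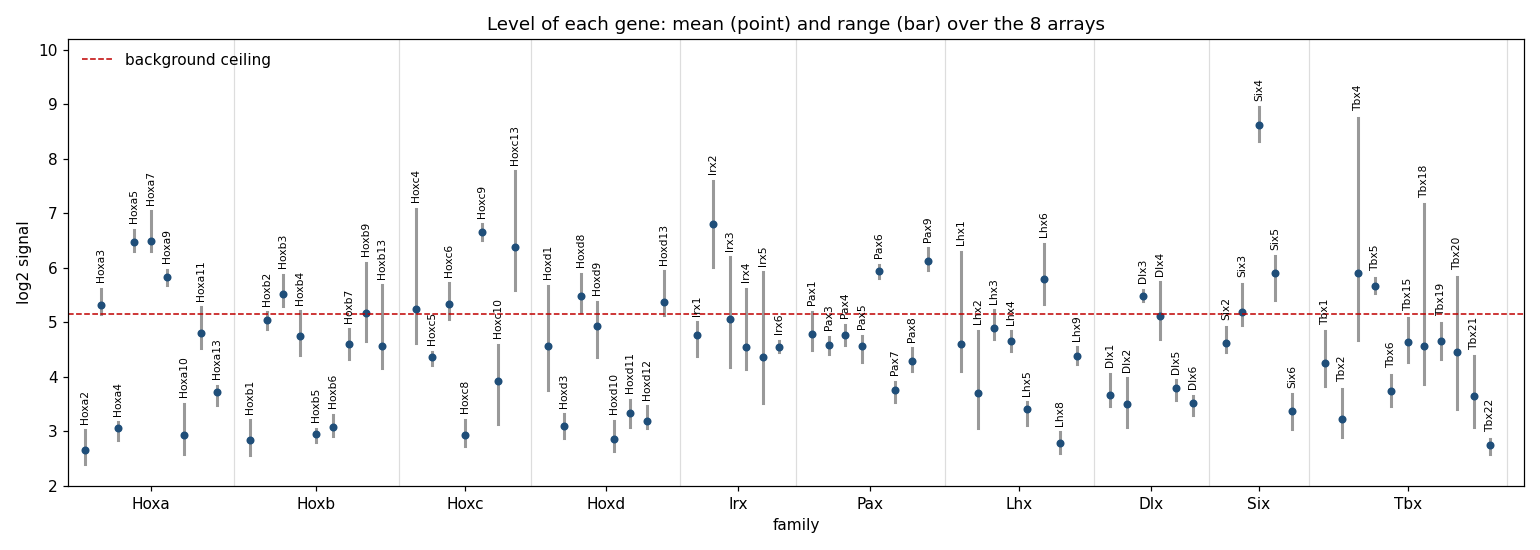
Log2 signal (vertical axis) of each of the 77 genes, grouped by family along the horizontal axis, with the mean over the 8 arrays as a point and the lowest to highest array as a bar. The dashed line is the background ceiling at 5.144, with 16 genes above it on all 8 arrays and 40 below it on all 8.

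The signal of a gene also depends on its probes, so an order of signals is no order of transcript amounts. The highest signal was that of Six4, a homeodomain factor of muscle and sense organ precursors. Six4 was at 8.52, 8.62, 8.80 and 8.44 on the Dox-treated arrays of the Nanog, Esrrb, 2i and empty vector backgrounds, against 8.51, 8.33, 8.95 and 8.78 on their Dox-untreated arrays. The groups overlapped, and Six4 did not pass the test of a common response (log2 change -0.05, SE 0.126, adjusted p = 0.849 from limma). It was followed by Irx2 (mean 6.80), Hoxc9 (6.66), Hoxa7 (6.49), Hoxa5 (6.48), Hoxc13 (6.39), Pax9 (6.13), Pax6 (5.94), Six5 (5.91) and Tbx4 (5.90). Of these, Hoxc9, a thoracic Hox gene, stayed between 6.51 and 6.80 on all 8 arrays, and Pax9, which is needed in the pharyngeal pouches and teeth, between 5.96 and 6.36. Elsewhere the highest gene of a family was Hoxb3 (mean 5.52) in the Hoxb cluster, Hoxd8 (5.49) in the Hoxd cluster, Lhx6 (5.79) among the Lhx and Dlx3 (5.48) among the Dlx genes. Some of these levels rest on 1 probe set. The other probe sets had means of 2.82 and 2.94 for Pax9, 3.19 for Hoxa5, 2.89 for Hoxb3 and 2.76 for Lhx6. Those of Six4 had means of 5.45, 8.19 and 8.57, and that of Dlx3 had 5.18. Of the 16 genes above the ceiling on all 8 arrays, 14 were within 2-fold in every pair, the exceptions being Hoxc13 and Irx2.

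Changes over 2-fold in at least 1 pair were found for 16 of the 77 genes, and the other 61 had log2 ratios of -0.87 to 0.80 in all 4 pairs. After Dox, 10 genes were over 2-fold higher in the 2i background (13.0% of the 77, against 4.81% of all genes) and 2 lower (2.60%, against 3.1%). In the empty vector pair 7 were higher (9.09%, against 5.36%) and 2 lower (2.60%, against 3.85%). In the Nanog pair 2 were higher (2.60%, against 1.13%) and 2 lower (2.60%, against 1.17%), and in the Esrrb pair 0 were higher (against 1.06%) and 1 lower (1.30%, against 0.967%). With 1 array per condition, these counts have no test. Against the empty vector Dox-untreated array, the 2i Dox-treated array had 10 genes over 2-fold higher, with Tbx20 in the place of Irx5, and 1 lower, Hoxd1. No share of all genes is given for this reference, so these counts cannot be read as particular to the 77.

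**Figure D2:**
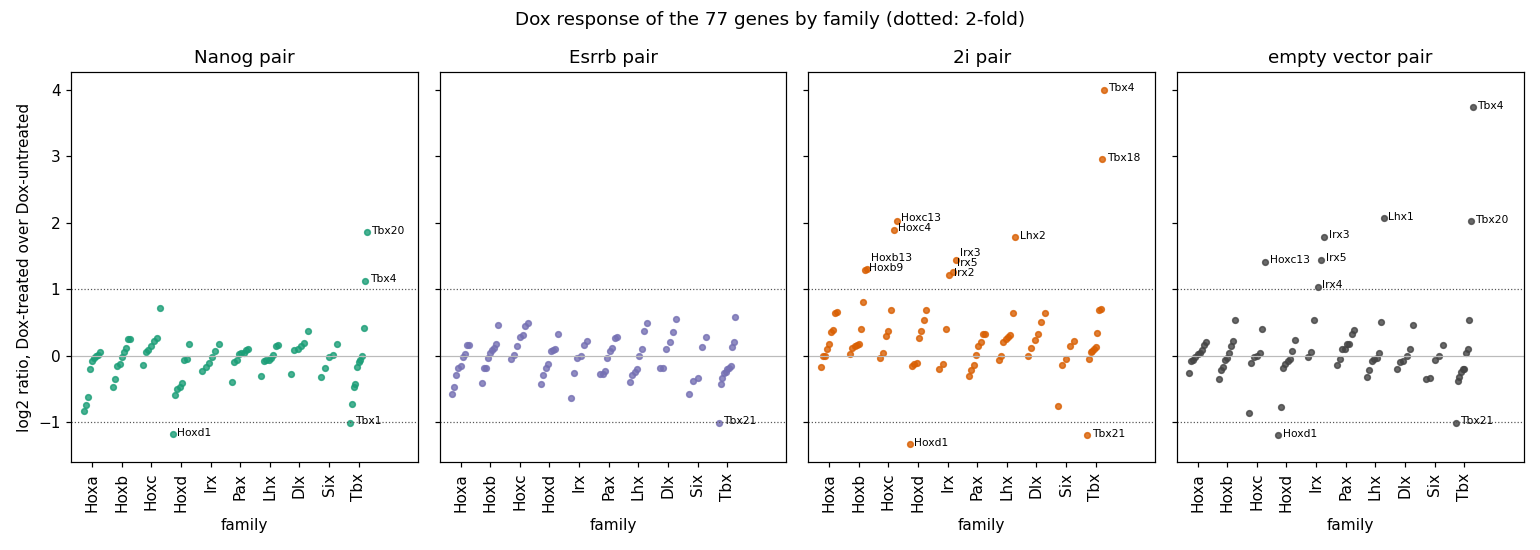
Log2 ratio of each of the 77 genes (vertical axis, Dox-treated over Dox-untreated) by family (horizontal axis) in the Nanog, Esrrb, 2i and empty vector pairs, with 1 point per gene. Dotted lines mark 2-fold, genes beyond them are named, and the Esrrb pair has no point above the upper line.

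The median log2 ratio of the 77 genes was -0.03 in the Nanog, -0.02 in the Esrrb, 0.20 in the 2i and -0.01 in the empty vector pair, against -0.01, 0.00, 0.03 and -0.03 over all genes. In the 2i pair 57 of the 77 ratios were above 0 (74.0%), as were 53 of the 75 receptor genes (70.7%), 62.2% of the genes of the whole array with a mean at or below the ceiling and 53.5% of all genes. Against the empty vector Dox-untreated array the share was 68.8% of the 77, 45.3% of the receptor genes and 53.7% of all genes. By family, the Irx genes had a median of 0.81 in the 2i and 0.78 in the empty vector pair, the highest of the families in each. The order in the 2i pair changed with its reference, since against the empty vector Dox-untreated array, a comparison of families chosen after seeing the data, the median was 0.16 for the Irx genes and 0.32 for the Hoxc genes, then the highest. The spread of the ratios within a family was widest among the Tbx genes, with an SD over 11 genes of 1.48 in the 2i and 1.35 in the empty vector pair. In bulk RNA such as this, a change in the number of cells that use a gene and a change in its RNA per cell cannot be told apart.

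Among the T-box genes Tbx4, a regulator of the hindlimb, the allantois and the lung mesenchyme, had the highest ratio of the 77 genes in the Esrrb, 2i and empty vector pairs. It was at log2 signals of 5.80, 5.33, 8.76 and 8.45 on the Dox-treated arrays of the Nanog, Esrrb, 2i and empty vector backgrounds, against 4.67, 4.75, 4.75 and 4.72 on their Dox-untreated arrays. All 4 Dox-treated arrays lay above all 4 Dox-untreated arrays and above the ceiling, and those of the 2i and empty vector backgrounds stood far above the other 6. The ratio amounted to 16.0-fold in the 2i, 13.3-fold in the empty vector and 2.17-fold in the Nanog pair, and its log2 value was 0.58 in the Esrrb pair. A second probe set of Tbx4 had log2 ratios of 0.28 in the Nanog, 0.22 in the Esrrb, 1.97 in the 2i and 1.60 in the empty vector pair.

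Tbx18, a factor of the epicardium, the sinus node and the somites, was high on 1 array. It was at 7.16 on the 2i Dox-treated array and at 3.93, 4.12 and 3.88 on the Nanog, Esrrb and empty vector Dox-treated arrays, against 4.40, 4.55, 4.21 and 4.20 on the Dox-untreated arrays of the Nanog, Esrrb, 2i and empty vector backgrounds. This is 7.73-fold higher in the 2i pair, while the log2 ratio was below 0 in the other 3 pairs, and a second probe set had a log2 ratio of 1.87 in the 2i pair. Tbx20, a heart factor, was instead over 2-fold higher in the Nanog (3.62-fold) and empty vector pairs (4.05-fold). Its log2 signals were 5.84, 3.41, 4.98 and 5.67 on the Nanog, Esrrb, 2i and empty vector Dox-treated arrays, against 3.98, 3.76, 4.29 and 3.66 on their Dox-untreated arrays. The Esrrb Dox-treated array was the lowest of the 8, and the other probe sets of Tbx20 had log2 ratios of 0.18 and 0.81 in the Nanog pair and of 0.06 and 1.05 in the empty vector pair. Tbx1, a factor of the pharyngeal arches, was over 2-fold lower in the Nanog pair alone, at 3.83 on the Nanog Dox-treated against 4.84 on the Nanog Dox-untreated array, both below the ceiling.

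Of the 6 Iroquois genes, which encode homeodomain factors of the neural plate, heart and limb buds, Irx3 and Irx5 passed 2-fold in both the 2i and the empty vector pair. Irx3 was at 4.72, 4.85, 6.20 and 5.97 on the Nanog, Esrrb, 2i and empty vector Dox-treated arrays, against 4.96, 4.89, 4.76 and 4.18 on their Dox-untreated arrays. The 2i and empty vector Dox-treated arrays were the only arrays above the ceiling, with ratios of 2.70-fold in the 2i and 3.46-fold in the empty vector pair. Irx5 was at 4.12, 3.94, 4.77 and 5.92 on the Dox-treated arrays in the same order, against 4.23, 3.96, 3.52 and 4.47 on the Dox-untreated arrays. The same pair of Dox-treated arrays was highest, but only the empty vector Dox-treated array passed the ceiling. The 2i Dox-untreated value of Irx5, 3.52, was the lowest of the 8. Against the empty vector Dox-untreated array (4.47) the 2i Dox-treated array (4.77) was not over 2-fold higher. Irx4, a factor of the ventricular myocardium, passed 2-fold in the empty vector pair alone, at 5.61 on the Dox-treated against 4.58 on the Dox-untreated array, and at 4.15 to 4.53 on the other 3 Dox-treated arrays. Irx2 was above the ceiling on all 8 arrays and 2.32-fold higher in the 2i pair, at 7.60 against 6.38, while in the Esrrb pair it was at 6.02 against 6.66. Irx3 and Irx5 are next to each other on chromosome 8, with no protein-coding gene between them in the RefSeq annotation, and Irx6, the next gene after Irx5, stayed within 4.45 and 4.66 on all 8 arrays.

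**Figure D3:**
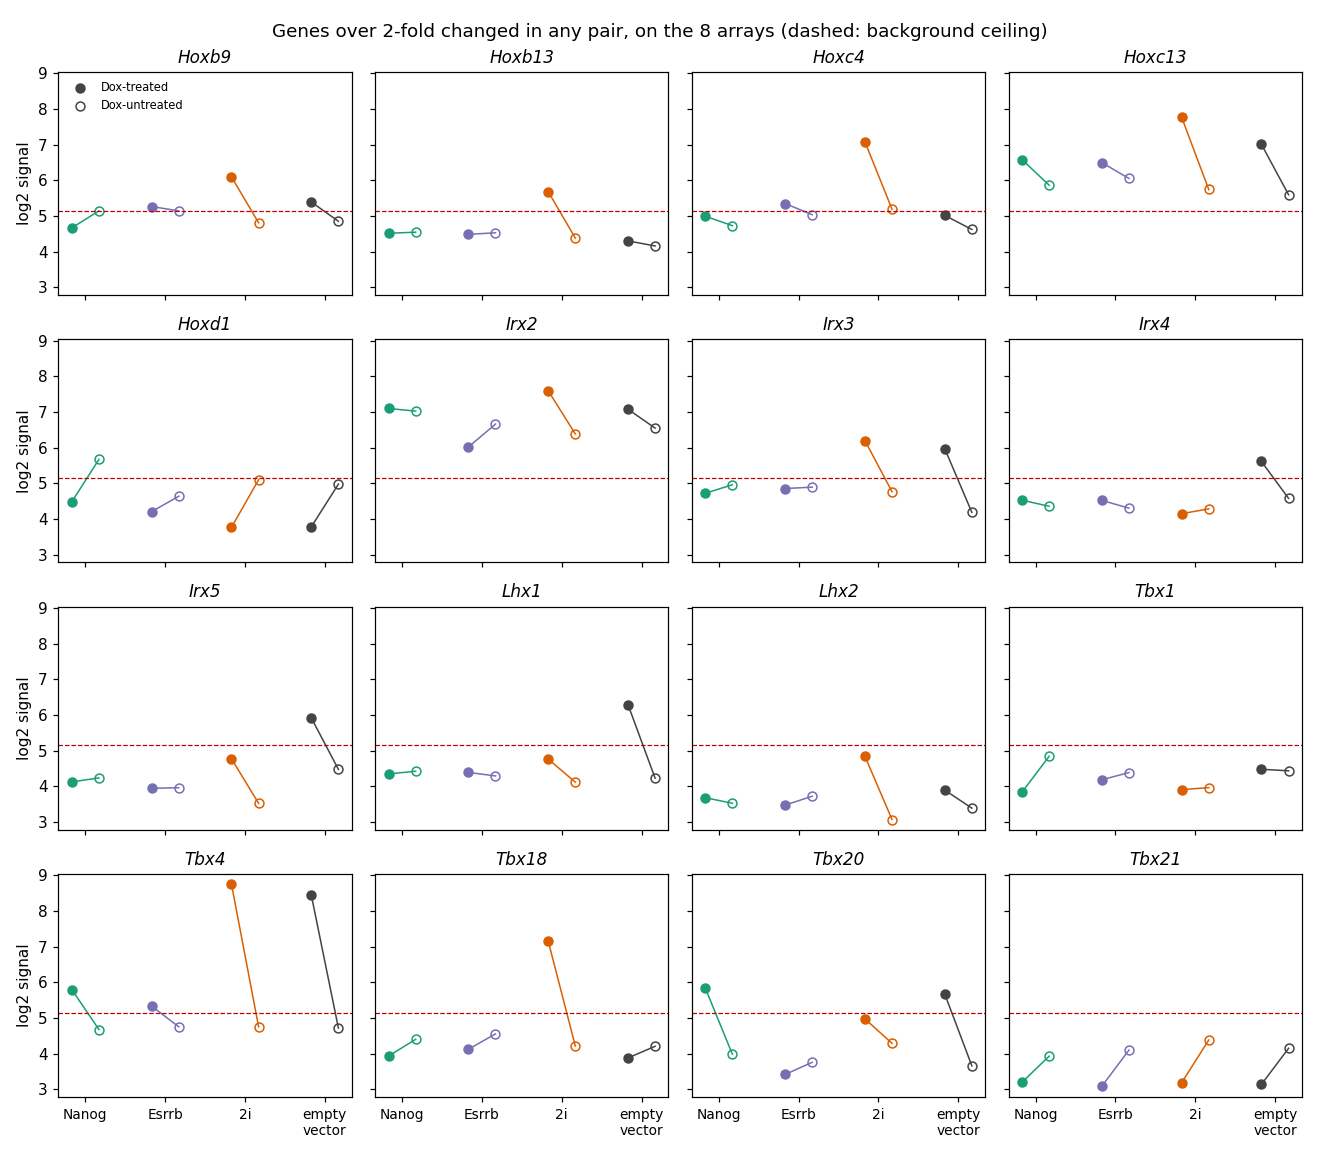
Log2 signal (vertical axis) of the 16 genes over 2-fold changed in any pair, with the Dox-treated array (filled) left of the Dox-untreated array (open) of each background and a line joining the arrays of a pair. The dashed line is the background ceiling, 3 of the 16 genes (Lhx2, Tbx1 and Tbx21) lie below it on every array, and Hoxc13 and Irx2 lie above it on every array.

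Of the 8 LIM homeobox genes, 2 were over 2-fold changed, each in a different pair. Lhx1, which is needed in the anterior mesendoderm and the kidney, was at 4.35, 4.39, 4.76 and 6.29 on the Nanog, Esrrb, 2i and empty vector Dox-treated arrays, against 4.42, 4.29, 4.11 and 4.22 on their Dox-untreated arrays. Only the empty vector Dox-treated array was above the ceiling, 4.19-fold higher than its Dox-untreated array, and a second probe set had a log2 ratio of 2.12 there. Lhx2, a factor of the forebrain and the eye, was at 3.68, 3.47, 4.84 and 3.89 on the Dox-treated arrays in the same order, against 3.52, 3.72, 3.07 and 3.38 on the Dox-untreated arrays. It was 3.43-fold higher in the 2i pair but above the ceiling on no array.

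The promoters of Tbx4 and Irx3, higher in both the 2i and the empty vector pair, and of Tbx18 and Lhx1, higher in only 1 pair, are shown to set their base composition side by side. Each line gives the 250 bases before the start of transcription, 5′ to 3′, from RefSeq on build GRCm38.p6, with every CpG dinucleotide in capitals.
Tbx4 (chr11:85896515-85896764, + strand): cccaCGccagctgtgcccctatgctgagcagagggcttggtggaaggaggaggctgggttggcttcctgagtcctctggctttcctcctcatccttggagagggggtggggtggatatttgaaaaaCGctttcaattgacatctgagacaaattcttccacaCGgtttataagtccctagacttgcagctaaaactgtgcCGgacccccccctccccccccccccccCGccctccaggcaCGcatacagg
Irx3 (chr8:91801655-91801904, - strand): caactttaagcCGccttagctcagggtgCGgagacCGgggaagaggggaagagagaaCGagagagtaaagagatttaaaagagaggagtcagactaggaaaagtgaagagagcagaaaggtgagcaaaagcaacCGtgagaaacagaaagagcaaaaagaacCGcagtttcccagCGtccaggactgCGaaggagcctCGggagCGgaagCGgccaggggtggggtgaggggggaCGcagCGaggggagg
Tbx18 (chr9:87731261-87731510, - strand): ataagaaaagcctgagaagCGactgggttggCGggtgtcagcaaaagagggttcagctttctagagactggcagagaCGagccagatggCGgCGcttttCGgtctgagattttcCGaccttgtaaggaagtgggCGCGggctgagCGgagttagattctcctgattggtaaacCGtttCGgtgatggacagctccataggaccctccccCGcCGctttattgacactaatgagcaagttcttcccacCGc
Lhx1 (chr11:84525535-84525784, - strand): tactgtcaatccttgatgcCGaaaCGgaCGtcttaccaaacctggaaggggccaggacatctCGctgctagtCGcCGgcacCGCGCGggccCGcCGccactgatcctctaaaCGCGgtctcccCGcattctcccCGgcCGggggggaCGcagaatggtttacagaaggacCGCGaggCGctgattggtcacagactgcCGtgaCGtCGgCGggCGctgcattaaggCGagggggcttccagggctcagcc
These windows hold 6 CpG in Tbx4, 13 in Irx3, 15 in Tbx18 and 26 in Lhx1. The table holds 61 such windows for 50 of the 77 genes, and none for the other 27, Irx5 and Hoxc13 among them. Their median was 13 CpG (range 1 to 35) and a G and C content of 59.6%, against 12 CpG (range 0 to 56) and 57.6% over 18110 windows of 14453 genes. The letters TATAAA, searched on both strands, were in 5 windows (8.20%), that of Tbx4 among them, against 8.81% of all windows. AAGGTCA, the letters of an Esrrb site, were in 2 (3.28%, against 3.48%), and TGANTCA, those of an AP-1 site, in 5 (8.20%, against 5.62%). AGGTGTGA, those of a T-box site, were in 1 (1.64%, against 0.917%). None of these 3 motifs was in the 4 windows shown.

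Of the 33 Hox genes, 4 were over 2-fold higher in the 2i pair (against 4.81% of all genes) and 1 was in that of the empty vector (against 5.36%). In each of these pairs 1 was over 2-fold lower, against 3.1% of all genes in the 2i and 3.85% in the empty vector pair. Hoxc13, a regulator of hair and nails at the end of the Hoxc cluster, was at 6.58, 6.50, 7.77 and 7.01 on the Nanog, Esrrb, 2i and empty vector Dox-treated arrays, against 5.86, 6.05, 5.74 and 5.59 on their Dox-untreated arrays. All 4 Dox-treated arrays lay above all 4 Dox-untreated arrays, and all 8 above the ceiling, with ratios of 4.08-fold in the 2i and 2.67-fold in the empty vector pair. Hoxc4, a gene of the neck and upper thorax at the other end of that cluster, was at 7.08 on the 2i Dox-treated array and at 4.99, 5.35 and 5.02 on the Nanog, Esrrb and empty vector Dox-treated arrays, against 4.73, 5.03, 5.19 and 4.62 on the Dox-untreated arrays of the Nanog, Esrrb, 2i and empty vector backgrounds. The 2i Dox-treated array stood apart from the other 7. Between them along the cluster lie 7 protein-coding genes. The probe set used for Hoxc5, next to Hoxc4, had log2 ratios of -0.05 to 0.05 in all 4 pairs. Its other probe sets differed. One had 0.94 in the 2i pair, at 3.83 on the Dox-treated against 2.88 on the Dox-untreated array, both below the ceiling. The other had 0.29 in the 2i and -0.33 in the empty vector pair.

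In the Hoxb cluster Hoxb9, a thoracic gene, and Hoxb13, a gene of the tail and the prostate, were over 2-fold higher in the 2i pair alone. Hoxb9 was at 6.10 on the 2i Dox-treated against 4.81 on the 2i Dox-untreated array, and at 5.39 on the empty vector Dox-treated array, with the other arrays between 4.66 and 5.26. Hoxb13 was at 5.68 on the 2i Dox-treated against 4.38 on the 2i Dox-untreated array, and between 4.16 and 4.54 on the other 6. The Hoxb genes had a median log2 ratio of 0.18 in the 2i pair, with 9 of 9 above 0 (against 53.5% of all genes), and of -0.04 in the empty vector pair, with 4 of 9. Against the empty vector Dox-untreated array 6 of the 9 were above 0 on the 2i Dox-treated array, with a median of 0.04, and Hoxb1, Hoxb2 and Hoxb7 were not. In the Hoxa cluster no gene was over 2-fold changed, and the log2 ratios were between -0.83 and 0.66.

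**Figure D4:**
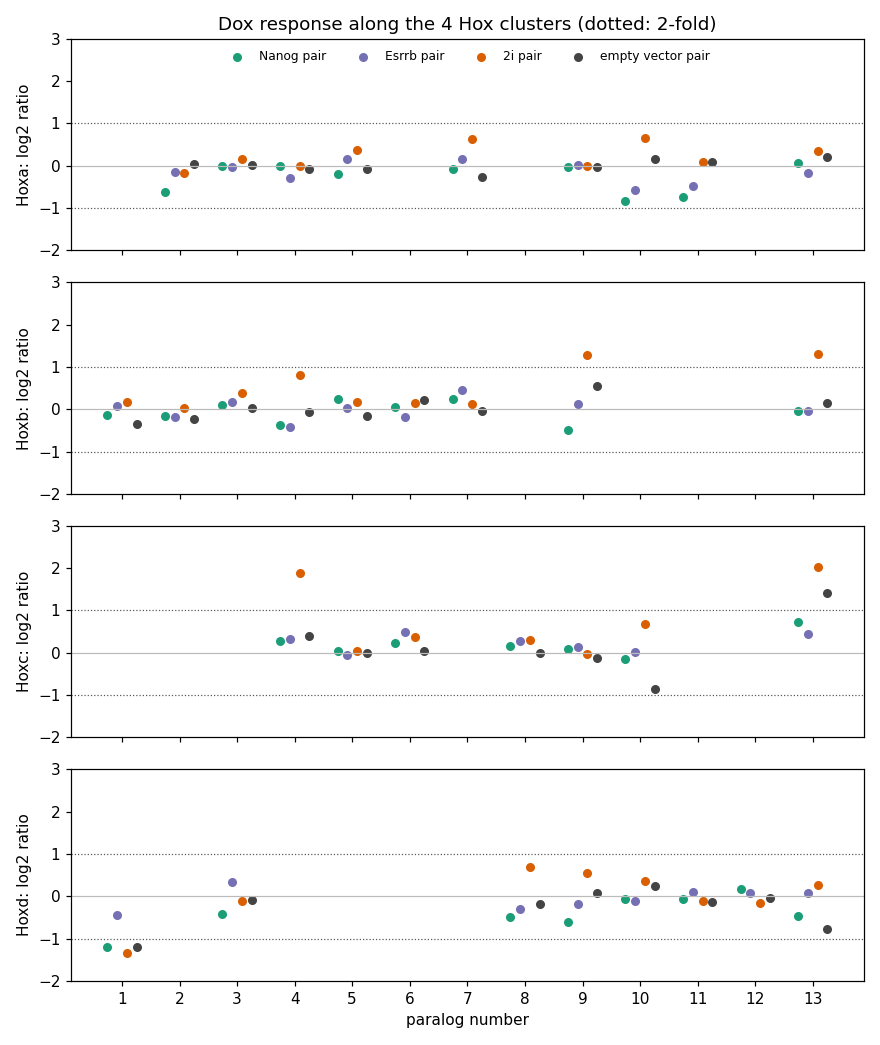
Log2 ratio of the 33 Hox genes (vertical axis, Dox-treated over Dox-untreated) by paralog number (horizontal axis), with 1 panel per cluster and 1 coloured point per pair. Hoxc4 and Hoxc13 lie at the ends of the measured Hoxc genes with the highest ratios in the 2i pair, and Hoxd1 is below the lower 2-fold line in the Nanog, 2i and empty vector pairs.

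Lower signals after Dox were shared by all 4 backgrounds for Hoxd1, the gene at the anterior end of the Hoxd cluster, and for Tbx21, which encodes T-bet, a T-helper cell factor. Hoxd1 was at 4.48, 4.20, 3.76 and 3.78 on the Nanog, Esrrb, 2i and empty vector Dox-treated arrays, against 5.67, 4.64, 5.10 and 4.98 on their Dox-untreated arrays. Tbx21 was at 3.19, 3.08, 3.18 and 3.14 on the Dox-treated arrays in the same order, against 3.93, 4.10, 4.38 and 4.15 on the Dox-untreated arrays. In both genes every Dox-treated array lay below every Dox-untreated array, but Tbx21 was below the ceiling on all 8 arrays and Hoxd1 above it only on the Nanog Dox-untreated array. The ratio of Hoxd1 was beyond 2-fold in 3 pairs (2.28-fold lower in the Nanog, 2.53-fold in the 2i and 2.30-fold in the empty vector pair). That of Tbx21 was beyond 2-fold in the Esrrb (2.02-fold), 2i (2.30-fold) and empty vector pairs (2.02-fold). In the Hoxd cluster the nearest measured neighbour, Hoxd3, had log2 ratios between -0.41 and 0.33.

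The promoters of Hoxd1 and Tbx21 are printed in the same way as those above, since these were the genes called lower in the test of a common response that follows.
Hoxd1 (chr2:74762730-74762979, + strand): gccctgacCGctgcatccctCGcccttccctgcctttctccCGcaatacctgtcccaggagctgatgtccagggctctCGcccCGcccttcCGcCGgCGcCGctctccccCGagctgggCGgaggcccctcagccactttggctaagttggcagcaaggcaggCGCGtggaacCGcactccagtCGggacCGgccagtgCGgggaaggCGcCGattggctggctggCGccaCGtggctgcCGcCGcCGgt
Tbx21 (chr11:97115332-97115581, - strand): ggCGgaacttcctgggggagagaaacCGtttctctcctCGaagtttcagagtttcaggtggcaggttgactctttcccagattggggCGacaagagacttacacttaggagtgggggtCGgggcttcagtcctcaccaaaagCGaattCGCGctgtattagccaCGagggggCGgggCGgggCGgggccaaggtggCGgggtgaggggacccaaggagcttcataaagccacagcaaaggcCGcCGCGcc
They hold 24 CpG in Hoxd1 and 16 in Tbx21, within the 6 (Tbx4) to 26 (Lhx1) of the windows printed above, and none of the 4 motifs searched.

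The response common to the 4 backgrounds was tested with limma, with the background as a block, 3 residual degrees of freedom and Benjamini-Hochberg adjustment over all 18194 genes at a threshold of 0.05. Since each condition has 1 array, these p-values measure the spread of the response between backgrounds and not between cultures of 1 condition. Of the 77 genes, 1 was called higher (1.30%, against 3.69% of all genes) and 2 were called lower (2.60%, against 3.39%). Tbx21 fell by 0.99 on the log2 scale (SE 0.0982, adjusted p = 0.0172 from limma, lower in 4 of 4 pairs). Hoxd1 fell by 1.04 (SE 0.167, adjusted p = 0.0305 from limma, lower in 4 of 4 pairs). Dlx2, a factor of forebrain interneurons and branchial arches, rose by 0.47 (SE 0.0742, adjusted p = 0.0295 from limma, higher in 4 of 4 pairs). Dlx2 was at 3.46, 3.77, 3.97 and 3.77 on the Nanog, Esrrb, 2i and empty vector Dox-treated arrays, against 3.09, 3.22, 3.46 and 3.32 on their Dox-untreated arrays. All 8 values are below the ceiling, and the groups touch, since the Nanog Dox-treated and the 2i Dox-untreated array have the same value to 2 decimals. None of these 3 calls held with any 1 pair left out, where their adjusted p from limma was 0.0509 to 0.100 with the signs kept, and where 0.0165% to 0.192% of all genes were called.

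The next genes in this test were Hoxc13, with a log2 change of 1.15 (SE 0.269, adjusted p = 0.0576 from limma), and Tbx4, with 2.36 (SE 0.627, adjusted p = 0.0750 from limma), both higher in 4 of 4 pairs. Before adjustment 8 of the 77 genes had p under 0.05 (10.4%, against 27.4% of all genes). All 4 Dox-treated arrays were above all 4 Dox-untreated arrays for 2 of the 77 genes, Hoxc13 and Tbx4 (2.60%, against 8.79% of all genes), and below them for 2, Hoxd1 and Tbx21 (2.60%, against 8.96%). These shares are below those of all genes.

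The responses of the Nanog and Esrrb pairs were set against those of the 2i and empty vector pairs in the same way, with 2 residual degrees of freedom, and none of the 77 genes was called (0 higher, against 0% of all genes, and 0 lower, against 0.0824%). The lowest adjusted p-values were those of Tbx4, Irx3 and Irx5. Tbx4 had a mean log2 ratio of 0.85 in the Nanog and Esrrb pairs, against 3.87 in the 2i and empty vector pairs, a difference of -3.02 (SE 0.269, adjusted p = 0.0518 from limma). Irx3 had -0.14 against 1.61, a difference of -1.75 (SE 0.233, adjusted p = 0.0521 from limma). Irx5 had -0.06 against 1.35, a difference of -1.41 (SE 0.196, adjusted p = 0.0557 from limma). Hoxa10, a posterior gene of the limb and the uterus, had -0.71 against 0.41 (adjusted p = 0.102 from limma). Tbx2, a repressor in the heart and limb, had -0.17 against 0.62 (adjusted p = 0.104 from limma). All 8 values of both genes were below the ceiling. Before adjustment 13 of the 77 genes had p under 0.05 (16.9%, against 15.8% of all genes). All 13 had the lower response in the Nanog and Esrrb pairs, while 7.94% of all genes had both p under 0.05 and this direction. Tbx4 was called with each array centred on its median, after a further quantile normalization and with robust variances. Irx3 and Irx5 were called with robust variances. These calls had adjusted p of 0.0400 to 0.0489 from limma. They are 1.30% of the 77 genes with centring (against 0.423% of all genes) and 1.30% after quantile normalization (against 0.0769%). With robust variances they are 3.90% (against 0.940%). Without the 2i pair 5 genes were called (6.49%, against 12.2% of all genes in that fit) and without the empty vector pair 15 (19.5%, against 11.5%), while without the Nanog or the Esrrb pair 0 were called, and 0 of all genes. In each of these fits 1 pair stood alone on a side.

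**Figure D5:**
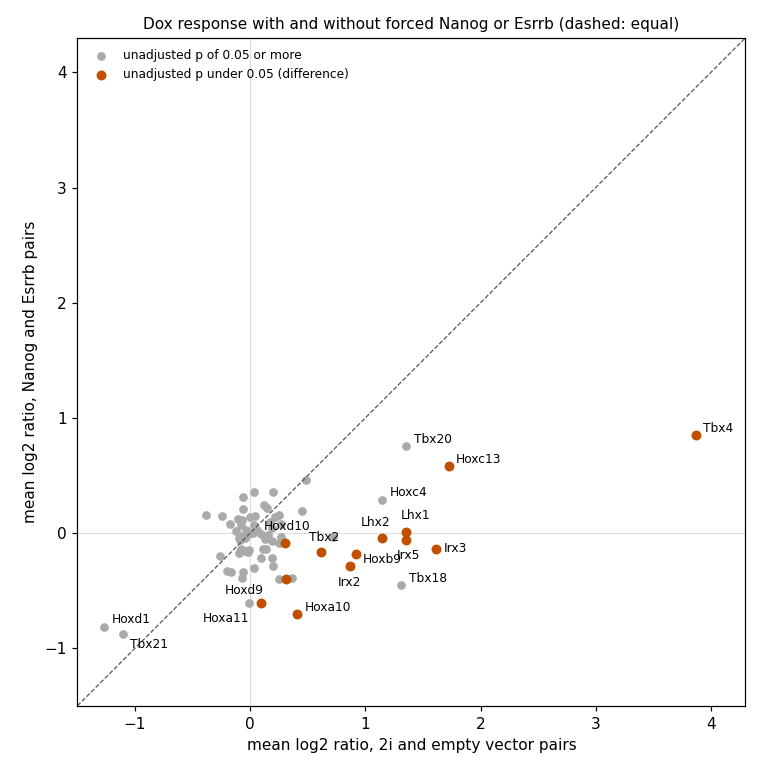
Mean log2 ratio in the Nanog and Esrrb pairs (vertical axis) against that in the 2i and empty vector pairs (horizontal axis), 1 point per gene, with the dashed line of equal response. The 13 genes with unadjusted p under 0.05 for the difference (limma) are coloured and all lie below the line, Tbx4 farthest from it at 0.85 against 3.87.

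Without a model, both the 2i and the empty vector Dox-treated array were above the other 6 arrays for 14 of the 77 genes (18.2%, against 11.3% of all genes) and below them for 2 (2.60%, against 12.7%). The 14 were Tbx4, Tbx2, Irx3, Irx5, Lhx1, Lhx2, Hoxc13, Hoxb9, Hoxb3, Dlx2 and Pax9, and also Hoxd10, Pax1 and Pax4, which are named here after their values were seen. The 2 were Hoxd1 and Hoxc9. Of the 13 genes over 2-fold higher in the 2i or the empty vector pair, 4 were so in both (Hoxc13, Irx3, Irx5 and Tbx4). These are 40.0% of the 10 in the 2i and 57.1% of the 7 in the empty vector pair, against 57.8% and 51.8% for the 506 of all genes that passed in both. With the empty vector Dox-untreated array as reference, Irx5 was not over 2-fold higher on the 2i Dox-treated array. None of the 77 passed 2-fold upwards in both of the other pairs. The arrays high for these genes are also those on which the mean of the trophoblast markers was highest (7.74 on the 2i and 7.96 on the empty vector Dox-treated array, against 6.16 to 6.53 on the other 6) and that of the pluripotency genes lowest (11.95 and 11.42, against 12.28 to 12.41). The mean of the mesoderm markers was also highest on these arrays (5.19 and 5.22, against 4.93 to 5.04 on the other 6). The part of these in the result was not tested.

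The backgrounds were also compared before Dox, where few of all genes passed 2-fold, so small counts do not set the 77 genes apart. Compared with the empty vector Dox-untreated array, 1 of the 77 genes was over 2-fold higher on the Nanog Dox-untreated array (1.30%, against 0.434% of all genes) and 0 were lower (0.253%). On the Esrrb Dox-untreated array 0 were higher (against 1.26%) and 0 lower (0.561%), and on the array labelled 2i Dox-untreated 0 were higher (0.517%) and 0 lower (0.242%). These 3 comparisons share the empty vector Dox-untreated array. The 1 gene was Lhx6, a factor of migrating forebrain interneurons, at 6.44 in Nanog-expressing and 5.42 in empty vector cells, and on the Dox-treated arrays it was at 6.13 and 5.34. The other probe set of Lhx6 did not show this, at 2.63 on the Nanog and 2.79 on the empty vector Dox-untreated array, both below the ceiling. The range of a gene over the 4 Dox-treated arrays had a median of 0.41 among the 77 genes and that over the 4 Dox-untreated arrays one of 0.34, against 0.41 and 0.32 over all genes.

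Genes that work with these factors were looked at as lists. Of all genes, 3.69% were called higher and 3.39% lower in the common response, and 0.0165% to 0.192% were called with any 1 pair left out. Whether the calls below held in those fits was not compared. Of 8 measured Hox cofactors, 2 were called lower in the common response and 0 higher, Pbx3 by 1.33 (SE 0.200, adjusted p = 0.0274 from limma) and Meis2 by 0.77 (SE 0.123, adjusted p = 0.0302 from limma), both of which encode TALE homeodomain partners of Hox proteins. Pbx3 was at 7.90, 6.12, 7.76 and 7.57 on the Nanog, Esrrb, 2i and empty vector Dox-treated arrays, against 8.94, 7.93, 8.54 and 9.28 on their Dox-untreated arrays. Of 21 Polycomb subunits 1 was called, Pcgf6, which fell by 0.49 (SE 0.0838, adjusted p = 0.0345 from limma), and the mean signal of the 21 was 9.65 to 9.68 on Dox-treated and 9.71 to 9.79 on Dox-untreated arrays. Of 50 other developmental homeobox genes 3 were called, all lower, the most by Otx2, a forebrain and epiblast factor (by 2.36, SE 0.397, adjusted p = 0.0325 from limma). The others were Tlx3 (by 0.81, adjusted p = 0.0328 from limma) and Gbx1 (by 0.46, adjusted p = 0.0499 from limma). None of 10 trithorax and H3K27 demethylase genes, 13 retinoic acid pathway genes, 5 Cdx and Evx genes and 4 other T-box genes passed. None of any of these lists passed the test of the difference between backgrounds. Other most changed genes of the lists were not called. In the 2i and empty vector pairs Pknox2 (log2 ratios 1.65 and 0.72), Cbx8 (1.20 and 0.84) and Phc2 (0.73 and 1.51) were higher. So were Nkx2-9 (1.25 and 1.57), Rdh10 (0.94 and 0.96), Dhrs3 (1.32 and 0.32), Kdm6b (0.78 and 0.52) and Cdx2 (0.11 and 1.07). Mga (-0.72 and -1.27) and Wdr5 (-0.17 and -0.77) were lower, and Evx1 (-1.09 and 0.09) differed between the pairs. Eomes, the T-box factor of trophoblast and mesendoderm, had log2 ratios of 0.56 in the Nanog, 0.22 in the Esrrb, 1.26 in the 2i and 1.10 in the empty vector pair. Tbx3, left out of the 77, was at 11.79, 11.97, 11.52 and 10.03 on the Nanog, Esrrb, 2i and empty vector Dox-treated arrays, against 11.82, 11.95, 11.46 and 11.30 on their Dox-untreated arrays, where only the empty vector Dox-treated array was low.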

How the data were processed

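The labels put each of the 8 Affymetrix mouse arrays in a condition. Arrays with active Stat3 are not used here. The authors made the deposited log2 values with RMA of the affy package in R, the version of each being not stated there. RMA makes the distributions of the arrays alike, so a shift of all genes would not be seen, and the array medians were 5.31 to 5.36. The values were used with no further normalization, and 0 columns of values were left without a sample. The annotation pairs 34958 of 45101 probe sets with 1 symbol, and 932 with several were not used, 3 of which hold a symbol of the 77 genes. The 77 symbols matched RefSeq by Entrez ID. The number of arrays limits the precision.

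limma 3.58.1 in R 4.3.3 (lmFit, and eBayes with a trend) fitted the Dox response common to the 4 backgrounds and the difference between the Nanog and Esrrb pairs and the 2i and empty vector pairs, with Benjamini-Hochberg adjustment over all genes, after being tested on simulated data. Counts and plots were made in Python 3.11.15 (numpy 2.4.6, pandas 2.3.3, matplotlib 3.10.9).

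The genes and lists were chosen with earlier results of these data known. Named were genes over 2-fold in any pair or called in either fit, the highest mean of each family, the 10 highest means, Pax6, the 5 lowest p-values of each fit, Tbx3, Gnl3, Dusp6, and called or most changed genes of the lists. As alternatives, the probe sets of a gene were averaged, and the others were leaving out probe sets with names ending in _x_at, a filter on dim genes, centring, quantile normalization, other variance settings, thresholds of 1.5-fold and 3-fold, any probe set, other ceilings, another reference for the 2i pair and leaving out each pair.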

Additional observations from a re-analysis of the deposited data

Results flagged for a closer look

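Of 48 probe sets of the 77 genes that were not used in the counts above, 4 ratios from 3 genes went beyond 2-fold where the probe set used did not. For Pax6, the eye and forebrain regulator, a probe set had a log2 ratio of -1.33 in the 2i pair and one of -2.13 with the empty vector, at 4.43 on the empty vector Dox-treated against 6.57 on the empty vector Dox-untreated array and at 4.23 on the 2i Dox-treated against 5.57 on the 2i Dox-untreated array. In the Nanog pair its log2 ratio was 0.30, in the Esrrb pair -0.20, while the probe set used for Pax6 stayed between 5.80 and 6.06 on all 8 arrays. A probe set of Pax7, a muscle and neural crest regulator, had a log2 ratio of 1.04 in the Esrrb pair, at 3.95 on the Dox-treated against 2.92 on the Dox-untreated array. A probe set of Lhx9, a gonad and limb factor, had a log2 ratio of 1.01 in the 2i pair, at 3.68 on the Dox-treated against 2.67 on the Dox-untreated array. The values of Pax7 and Lhx9 are below the background ceiling, and no test was made on any of the 4, with 1 array per condition.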

How the results depend on the processing

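The 3 calls of the common response fell to 0 with the filter on dim genes, which only 2 of the 77 genes pass. Of all genes that pass it, 18.6% were called. The calls also fell to 0 in every fit without 1 pair, where 0.0165% to 0.192% of all genes were called. The 0 calls of the difference became 1 with centred arrays, 1 after quantile normalization, 3 with robust variances and 0 to 15 with each pair left out (5 without the 2i and 15 without the empty vector pair, where 12.2% and 11.5% of all genes were called). At 1.5-fold the counts were 7 lower in the Nanog, 2 lower in the Esrrb, 19 higher in the 2i and 4 lower in the empty vector pair. At 3-fold they were 1 higher and 0 lower in the Nanog, 0 lower in the Esrrb, 5 higher and 0 lower in the 2i and 4 higher and 0 lower in the empty vector pair. The shares of all genes at 1.5-fold and 3-fold are not given, so these counts cannot be read as particular to the 77 genes. With the probe sets of each gene averaged, 0 genes were over 2-fold higher in the Nanog pair and 7 were above the ceiling on all 8 arrays. With any probe set counted, 1 was higher in the Esrrb pair. With the empty vector Dox-untreated array as reference, 1 was lower in the 2i pair, and after quantile normalization 1 was lower in the empty vector pair. With the 99th percentile as the ceiling 1 gene was above it on all 8 arrays and 69 on none, and with the median over all genes 1 and 68. All Dox-treated above all Dox-untreated arrays were found for 4 genes with mean probe sets and 4 to 9 with a pair left out (9 without the Nanog, 7 without the Esrrb, 4 without the 2i and 7 without the empty vector pair), and below for 2 to 9 (9 without the 2i and 5 without the empty vector pair), against 2215 to 2556 above and 2290 to 2728 below of the 18194 genes. The 2i and empty vector Dox-treated arrays were above the others for 16 to 31 genes with a pair left out (31, or 40.3%, without the empty vector pair, against 26.4% of all genes, and 16 to 20 otherwise, against 2540 to 3705 of the 18194 genes) and below for 2 to 14 (5 without the Esrrb, 14 without the 2i and 5 without the empty vector pair, against 16.4% to 28.8% of all genes), or for 4 with mean probe sets, 1 with centred arrays and 1 after quantile normalization. With mean probe sets, 7.95% of all genes had all Dox-treated above all Dox-untreated arrays. The 2i and empty vector Dox-treated arrays were below the others for 12.2% of all genes with mean probe sets, 12.2% with centred arrays and 12.5% after quantile normalization. Apart from the filter, the robust variances and the fits with fewer arrays, whose construction differs, the cause of these shifts was not tested. The coefficients of Tbx21, Dlx2, Hoxd1, Hoxc13 and Tbx4 in the common response and of Tbx4, Irx3, Irx5, Hoxa10 and Tbx2 in the difference kept their sign under the alternatives run on them. Those of the other genes were not compared. The fits are paired by background, and the labels give no other replicate numbers. For arrays, signal over background is the limit: 40 of the 77 genes never passed the ceiling.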

Other observations

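The array also holds 10 transcripts named as antisense or opposite-strand partners of these genes, which were not counted among the 77. Their log2 ratios were between -0.65 and 0.13 in the 4 pairs. The lowest was that of Dlx1as in the Esrrb pair, and Lhx1os, the partner of Lhx1, had 0.06 in the empty vector pair, where Lhx1 had 2.07. Hoxa11os had -0.45 in the Nanog and 0.13 in the 2i pair, where Hoxa11, named here after its values were seen, had -0.75 in the Nanog and 0.09 in the 2i pair.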
